A study of Mus musculus with 6 samples.

Results

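ESRRB regions that lie far from any protein-coding gene made up 17.3% of the regions called in 2iL, 17.3% after 48 h and 16.7% after 96 h. A region is a unique interval of a deposited peak list, represented by its highest summit, and it was counted as far when that summit lay more than 50 kb outside every protein-coding gene span of the mm10 RefSeq annotation. The rule kept 2381 of 13767 regions in 2iL, 1900 of 10970 at 48 h and 1170 of 7018 at 96 h, which is 5451 of 31755 in all. The exact 95% intervals of the shares were 16.7% to 17.9%, 16.6% to 18% and 15.8% to 17.6%. ESRRB was mapped by ChIP-seq, in which an antibody pulls down the protein with the DNA it is bound to, in E14 cells, a widely used line of mouse embryonic stem cells grown here in N2B27 medium. In 2iL the medium held the GSK3 inhibitor CHIR99021 at 3 µM, the MEK inhibitor PD0325901 at 1 µM and LIF, a cytokine. The other cells were sampled 48 h and 96 h after these were withdrawn. All cells were fixed with 1% formaldehyde, and each condition had 1 ESRRB library made from 10 ng of DNA and 1 input library, which was not used here.

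ESRRB is an orphan nuclear receptor of the estrogen-related family, and it acts without a known natural ligand. It binds DNA mostly as a monomer at the estrogen-related receptor element, TCAAGGTCA, which is the short nuclear receptor site AAGGTCA with an extension before it. In naive embryonic stem cells it works with NANOG, KLF4 and the OCT4–SOX2 pair, and inhibition of GSK3 keeps its gene active. Many sites of these factors are enhancers, which can act on promoters over long distances, so the nearest coding gene of a far region is a position and not a known target.

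With 1 library per condition nothing could be tested between conditions, and the values below describe these 3 libraries. Intervals on shares are exact Clopper-Pearson 95% intervals and cover counting error only. Fold, as the authors deposited it, divides the reads at a summit by a local background. Whether that background came from the ESRRB library or from its input is not stated. From the fold and its p-value the reads behind each summit came out as whole numbers for 99.6% to 100% of far regions. The most common local background of a list, taken here as its lowest, depends on the depth of a library but does not measure that depth alone. It was 5.05 reads in 2iL, 8.09 at 48 h (1.60 times 2iL) and 5.84 at 96 h (1.16 times 2iL). The 96 h list was the shortest of the 3, and the part of depth in this was not tested. Fewer bound places, weaker enrichment and a shallower library cannot be told apart from these files as reasons for a shorter list.

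Sequence could be shown where the summit of a far region fell inside the start window of an annotated gene, 250 bases before to 50 after its start, as given by RefSeq on GRCm38.p6 (the mm10 assembly). These genes are all non-coding by the rule. There were 16 such genes in 2iL, 13 after 48 h and 9 after 96 h, and 22 over the 3 libraries. The short element AAGGTCA, searched on both strands, was in the window of 6 of the 16 genes (37.5%), 6 of the 13 (46.2%) and 3 of the 9 (33.3%). Counted per window and not per gene, it was in 4.72% of all 32851 start windows and 5.89% of those of non-coding genes. For the other regions, those within 50 kb of a coding gene, the share per gene was 27.6% of 366 genes in 2iL, 34.6% of 234 at 48 h and 30% of 213 at 96 h. The full element TCAAGGTCA, which contains the short one, was in 1, 2 and 1 of the far windows, against 0.423% of all windows. A match describes these letters and is not evidence of a bound site.

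The 5 windows shown here are those of the strongest of these starts and of one that resembles it, of the 2 genes with the full element and of one near the formative gene Pou3f1. Each is printed 5′ to 3′ on the strand of its gene, with a match to the element on either strand in capitals.
C330004P14Rik (chr10:15791527-15791826, + strand): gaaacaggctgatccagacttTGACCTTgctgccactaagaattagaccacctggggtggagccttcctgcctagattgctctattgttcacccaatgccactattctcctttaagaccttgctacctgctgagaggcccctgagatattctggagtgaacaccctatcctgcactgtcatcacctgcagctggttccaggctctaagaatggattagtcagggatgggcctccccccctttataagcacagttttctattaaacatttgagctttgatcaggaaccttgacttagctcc
Gm32587 (chr14:18463360-18463659, + strand): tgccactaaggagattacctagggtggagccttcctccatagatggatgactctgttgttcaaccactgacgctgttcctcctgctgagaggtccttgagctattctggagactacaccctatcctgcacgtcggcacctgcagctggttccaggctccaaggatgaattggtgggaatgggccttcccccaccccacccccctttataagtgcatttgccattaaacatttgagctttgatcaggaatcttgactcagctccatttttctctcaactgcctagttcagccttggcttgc
Gm46796 (chr3:6106767-6107066, + strand): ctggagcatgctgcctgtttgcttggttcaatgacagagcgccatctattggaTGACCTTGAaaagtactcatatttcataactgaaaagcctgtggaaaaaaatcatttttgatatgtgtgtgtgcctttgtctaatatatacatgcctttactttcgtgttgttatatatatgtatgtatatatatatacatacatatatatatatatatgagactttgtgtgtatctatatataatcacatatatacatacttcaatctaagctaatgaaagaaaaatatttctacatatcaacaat
Gm30085 (chr15:93001260-93001559, + strand): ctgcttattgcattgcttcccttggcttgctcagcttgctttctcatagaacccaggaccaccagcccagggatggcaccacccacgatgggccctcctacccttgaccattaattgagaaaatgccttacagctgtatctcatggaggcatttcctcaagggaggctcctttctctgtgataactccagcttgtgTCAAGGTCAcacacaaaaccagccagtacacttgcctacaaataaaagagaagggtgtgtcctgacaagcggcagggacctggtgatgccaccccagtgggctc
1700057H15Rik (chr4:124485910-124486209, − strand): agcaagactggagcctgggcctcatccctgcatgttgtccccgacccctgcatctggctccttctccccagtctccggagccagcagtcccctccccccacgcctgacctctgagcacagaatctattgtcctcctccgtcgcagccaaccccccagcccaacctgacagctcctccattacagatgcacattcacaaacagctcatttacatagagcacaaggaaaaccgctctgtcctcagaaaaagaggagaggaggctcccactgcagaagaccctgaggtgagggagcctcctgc

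The start of C330004P14Rik lay 1020 kb from Nmbr and 1932 kb from Cited2, and its region had a fold of 14.3 in 2iL, 14.2 after 48 h and 12.1 after 96 h. Its short element begins at base 22 of the window, read on the opposite strand, and lies 52 bp from the 2iL summit. The start of Gm32587, between Ube2e1 and Ube2e2 on another chromosome, had folds of 8.83, 3.84 and 5.61. These 2 windows resemble each other: bases 31 to 300 of the first align with bases 1 to 263 of the second, with 217 of 248 paired bases identical (87.5%). Their longest shared stretch was 27 bp, against a median of 9 bp over all 231 pairs of the 22 genes. The part of the first window that holds the element lies before the first base of the second, so this window cannot show whether the second place has it.

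Gm46796, between Pex2 and 1700008P02Rik, was not called in 2iL and had folds of 8.17 at 48 h and 8.77 at 96 h, and its full element begins at base 54, 27 bp from the 48 h summit and 1 bp from the 96 h summit. Gm30085, between Pdzrn4 and Gxylt1, had folds of 3.23 in 2iL and 3.52 at 48 h and was not called at 96 h, with the full element 70 bp and 66 bp from its summits. The start of 1700057H15Rik lies in the gap before Pou3f1 and holds neither element. It was not called in 2iL and had folds of 4.47 at 48 h and 9.61 at 96 h.

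Far regions had a somewhat higher fold than the others in each library, over a lower local background. The median fold was 6.20 in far regions and 5.82 in other regions in 2iL, 5.28 and 4.94 at 48 h, and 5.03 and 4.82 at 96 h. Far regions ranged from 1.41 to 37.2 in 2iL, from 1.34 to 33.8 at 48 h and from 1.31 to 32.5 at 96 h. Of the far regions, 24.6% (22.9% to 26.4%) stood among the strongest quintile of the 2iL list by fold, against 19% (18.3% to 19.8%) of the other regions. At 48 h these shares were 23% and 19.4%, and at 96 h 22.6% and 19.5%.

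The reads at the summit did not show the same difference. The median was 51 reads in far regions and 51 in other regions in 2iL, 61 and 69 at 48 h, and 42 and 46 at 96 h. The median local background was 6.90 reads in far regions and 8.01 in other regions in 2iL, 10.33 and 12.45 at 48 h, and 6.62 and 8.04 at 96 h. The background stood at the value taken as the lowest of the library, or very close to it, for 18% of far regions and 9.51% of other regions in 2iL. These shares were 27.9% and 11.5% at 48 h, and 33.8% and 16.8% at 96 h. The median −log10 p was 25.6 in far regions and 24.2 in other regions in 2iL, 25.7 and 26.2 at 48 h, and 17.2 and 18.3 at 96 h. The part of the lower background in the higher fold of far regions was not tested.

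**Figure D1:**
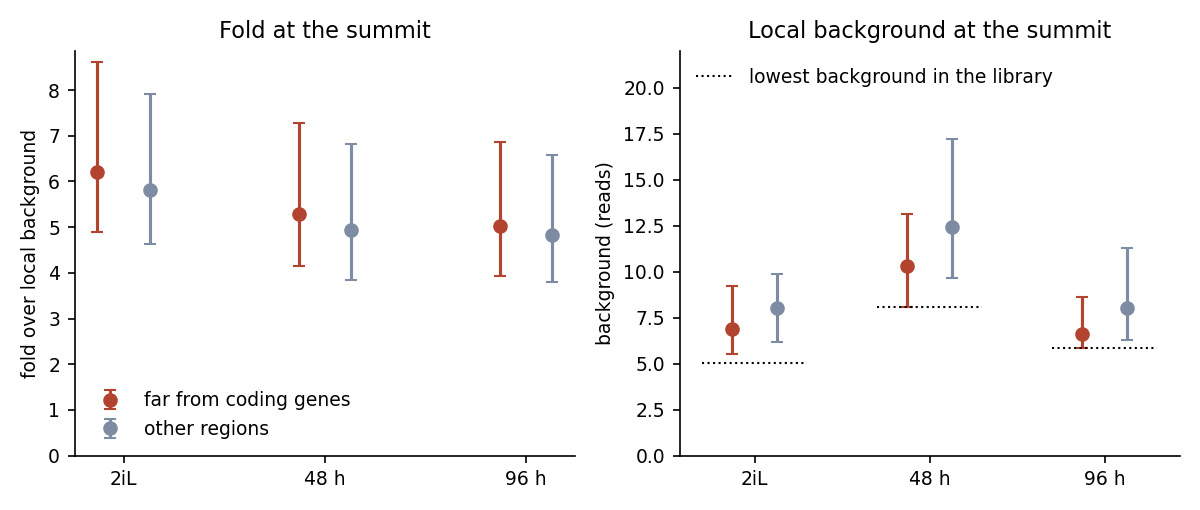
Fold (left) and local background in reads (right) at the summit of far regions (red) and other regions (grey) in the 3 libraries. Points are medians, bars run between the quartiles, and dotted lines mark the most common background of each library, taken as its lowest. The fold of far regions has the higher median in each library (6.20 against 5.82 in 2iL), and their background the lower one (6.90 against 8.01 reads in 2iL).

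Nearly equal parts of the far 2iL regions were called again at 48 h and not called at either later time. Of the 2381 far 2iL regions, 1133 (47.6%, 45.6% to 49.6%) overlapped a 48 h region, against 51.4% (50.4% to 52.3%) of the other regions and 50.7% of all 2iL regions. At 96 h 776 (32.6%) were called, against 35.5% of the other regions and 35% of all. Both later lists held 684 (28.7%), against 31.9% of the others and 31.3% of all, and neither held 1156 (48.6%), against 45% of the others and 45.6% of all. The far shares are close to the background of all regions, and the distance from the other regions is 2.94 to 3.78 percentage points for the single times.

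Looked at from the later lists, 1128 of the 1900 far 48 h regions were called in 2iL (59.4%, against 64.4% of the other regions and 63.5% of all) and 891 at 96 h (46.9%, against 49.8% and 49.3%). Of the 1170 far 96 h regions, 782 were called in 2iL (66.8%, against 70.1% and 69.5%) and 902 at 48 h (77.1%, against 78.6% and 78.3%). The share was thus lower in far regions in all 6 directions. As a mean over quintiles of fold, or over quintiles of −log10 p, it was also lower in all 6, and the largest distance was −7.81 points, for far 48 h regions called in 2iL over quintiles of fold. In the single quintiles it was lower in 30 of 30 pairs by fold and in 26 of 30 by −log10 p. These pairs recount the same 3 lists and are not independent of each other. Without quintiles, the far and other intervals overlapped from 96 h in both directions and from 48 h to 96 h. They did not overlap in the other directions. With 3 lists of equal length, cut by fold, far 96 h regions were called more often than the others (50.1% against 48.5% in 2iL, and 66.6% against 62.4% at 48 h).

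Sharing climbed with strength. In the weakest quintile of the 2iL list 28% of far regions and 30.7% of other regions were called at 48 h, and in the strongest quintile (fold of 8.71 or more) 71.1% and 79.2%. At 96 h the strongest quintile gave 57.4% of far regions and 63.4% of the others. Even so, 152 of the 585 far regions in the strongest quintile (26%, 22.5% to 29.7%) were called at neither later time, against 401 of 2169 others (18.5%, 16.9% to 20.2%). Among far 2iL regions, 60.4% of those present in the 48 h list were also in the 96 h list, and 7.37% of those absent from it, against 62.1% and 7.53% for the other regions.

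**Figure D2:**
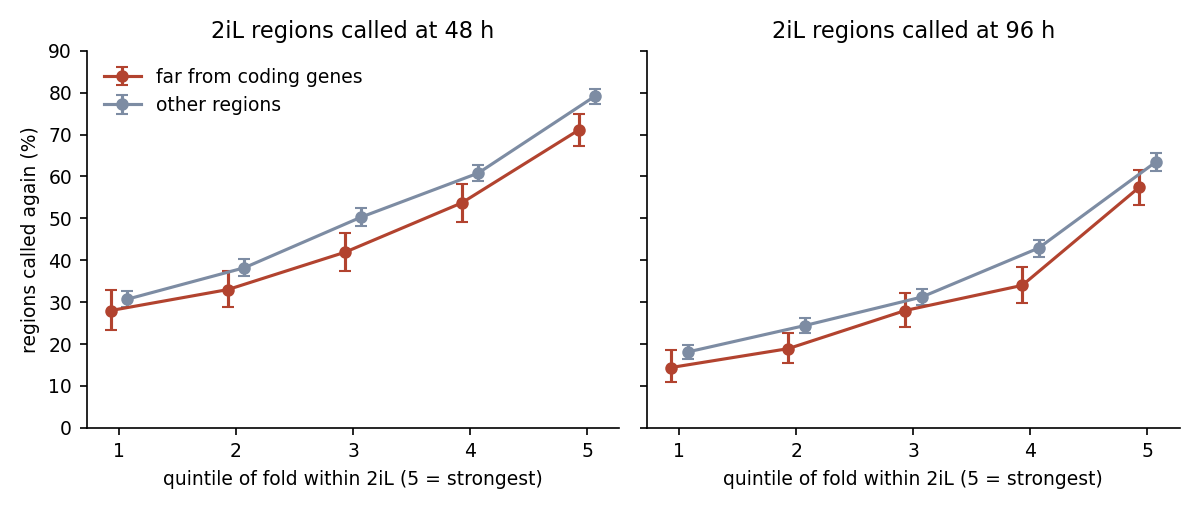
Share of 2iL regions called again at 48 h (left) and 96 h (right), by quintile of their fold in 2iL, for far regions (red) and other regions (grey); bars are exact 95% intervals for counting error. The share climbs with strength in both sets, to 71.1% of far and 79.2% of other regions at 48 h in the strongest quintile, and the far points lie under the others in each quintile.

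Joined over the libraries, the far regions formed 3305 distinct places. Of these 1156 (35%) were called in 2iL alone, 563 (17%) at 48 h alone and 175 (5.3%) at 96 h alone, while 673 (20.4%, 19% to 21.8%) were called in all 3 libraries, against 23.4% (22.7% to 24.1%) of 15325 other places. A further 209 far places (6.32%) were called at both later times and not in 2iL, against 5.83% of other places. Partner regions lay close together: 93.6% of far 2iL regions that overlapped a 48 h region had their summits within 200 bp of each other. Across the 684 far 2iL regions called in all 3 lists, the rank correlation of fold was 0.51 between 2iL and 48 h, 0.44 between 2iL and 96 h and 0.64 between 48 h and 96 h, as a description over regions that share their libraries. These regions include weak ones, such as that at chr2:98665111 with folds of 1.52, 1.34 and 1.45. Neighbouring 2iL regions can also pair with the same later region, as at chr13:5550412 and chr13:5551946.

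**Figure D3:**
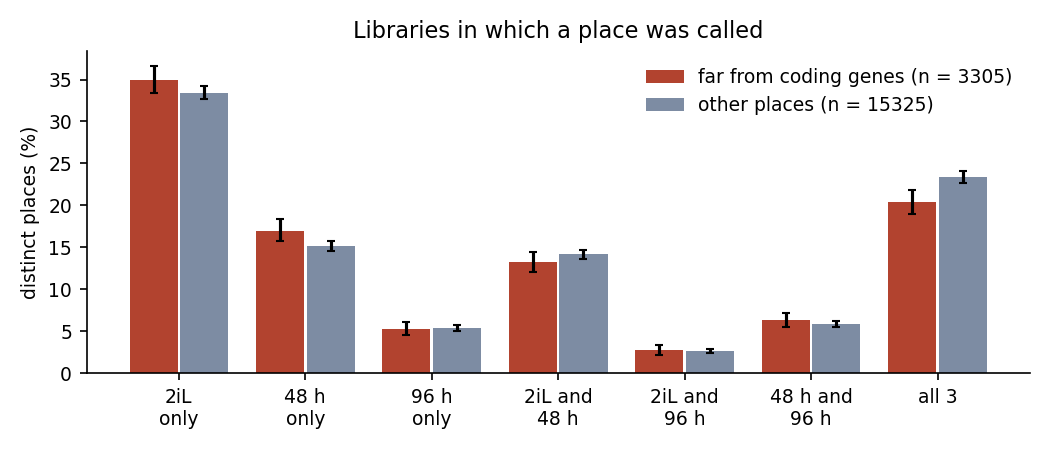
Share of distinct places by the libraries in which they were called, for places far from coding genes (red, 3305) and other places (grey, 15325), with exact 95% intervals for counting error. Places called in 2iL alone are the largest class in both sets (35% of far places), and all 3 libraries hold 20.4% of far and 23.4% of other places.

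The strongest far region of 2iL stood in the gap between Pcdh20 and Pcdh9, both protocadherin adhesion genes, at chr14:92862641-92863701, 151 kb from Pcdh9. Its fold was 37.2 in 2iL, 22.7 after 48 h and 14.9 after 96 h. The next, between Ralgapa2 and Kiz, had folds of 33.7, 21.2 and 11.5. The region ranked 3 in 2iL, between Nbea and Tm4sf1 at chr3:56826958-56828281, had a fold of 30.2 in 2iL and stood far lower in the later lists, with 4.51 at 48 h and 6.28 at 96 h. All 10 strongest far 2iL regions were called in all 3 libraries. One of them lay 106 kb downstream of Sox2, a core pluripotency factor, and another 269 kb from Ncam1, a neural adhesion gene, and 426 kb from Plet1, a surface gene of early trophoblast cells, with folds of 25.2, 9.84 and 10.5.

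At 48 h and 96 h other regions led. The strongest at 48 h, chr4:55474891-55478073, lay 51.5 kb downstream of Klf4, a naive pluripotency factor, and had folds of 18.5 in 2iL, 33.8 after 48 h and 30.3 after 96 h. A region 62 kb from Spred2, an inhibitor of the ERK pathway, had folds of 20.2, 26.2 and 21.0, and one 311 kb upstream of Klf6 had 14.6, 22.9 and 16.2. The strongest at 96 h lay between Car2 (a carbonic anhydrase) and Gm9733 at chr3:15158834-15161357, with folds of 11.9, 18.6 and 32.5. Another of the 96 h leaders lay 53.4 kb upstream of Klf9, with folds of 16.4, 16.2 and 23.4. Since each list has its own background, these orders are within a library and no change was tested.

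**Figure D4:**
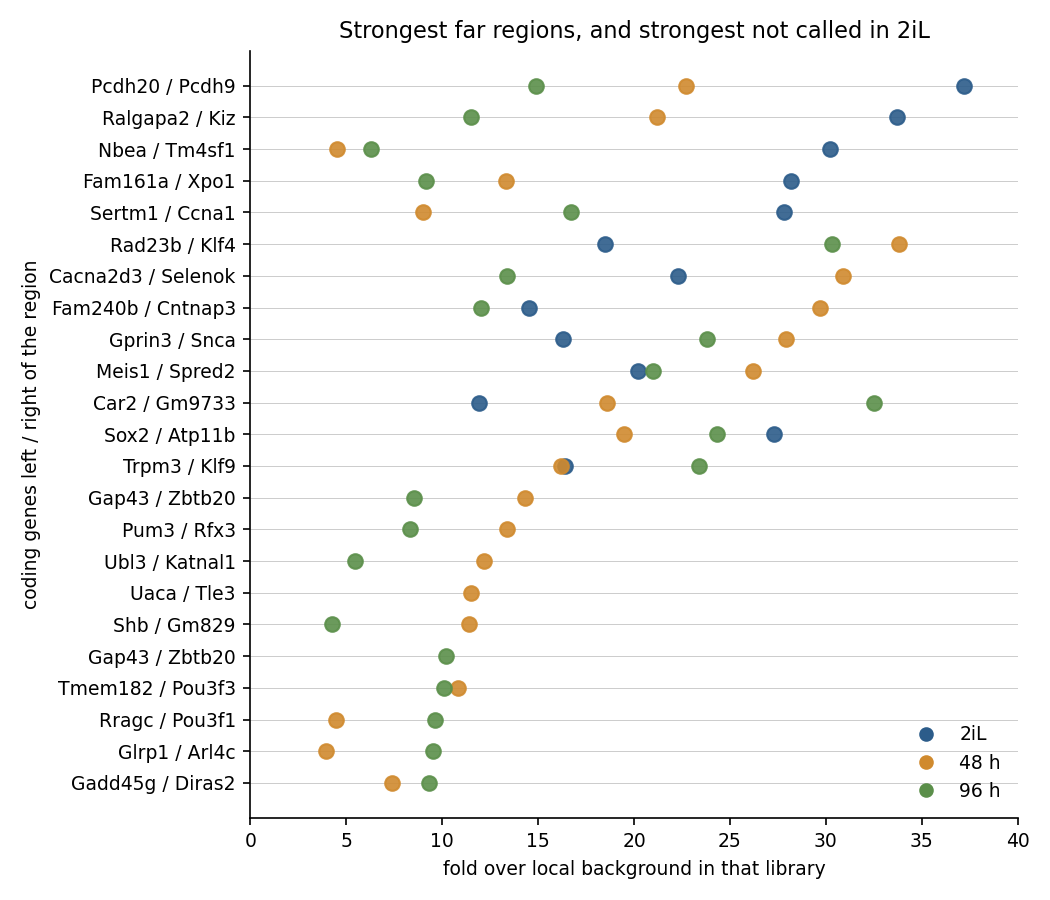
Fold of the 5 strongest far regions of each library and of the 5 strongest at each later time that 2iL lacked, each row named by the coding genes on its left and right, with 1 point per library that called it. Pcdh20–Pcdh9 leads 2iL at 37.2, Rad23b–Klf4 leads 48 h at 33.8 and Car2–Gm9733 leads 96 h at 32.5, while the regions without a 2iL point stay at or under 14.3.

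Among the far regions called in 2iL alone, the strongest lay between Arpp21 and Pdcd6ip at chr9:113112446-113113408, inside the span of the lncRNA Gm46133, with a fold of 22.2. The next was inside the gap between Cd83 and Jarid2, a cofactor of the Polycomb repressive complex PRC2, at chr13:44208990-44210872, with a fold of 19.8. The others of the 10 had folds of 15.0 to 17.5. The most remote region of 2iL, chosen after its values were seen, lay 2149 kb from Pcdh17 and 2272 kb from Olfm4, had a fold of 12.9 and was called in 2iL alone. Far regions that were missing from 2iL were ranked within each later list, and their folds were not set against those of 2iL. The strongest at 48 h lay between Gap43, a growth cone gene, and Zbtb20 at chr16:42574633-42576551, with folds of 14.3 at 48 h and 8.54 at 96 h. The strongest at 96 h lay in the same gap, at chr16:42594708-42595531, with a fold of 10.2 at 96 h alone. Next at 96 h was a region 452 kb upstream of Pou3f3, a neural POU factor, with folds of 10.8 at 48 h and 10.1 at 96 h.

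Far regions had a second region close by, here called clustered, less often than the others. They were also sparser, at 2.36 regions per Mb against 6.75 elsewhere in 2iL, and clustering was not set against that density. A second region of the same library lay within 25% of the 50 kb limit (the step) of the summit for 25.4% (23.6% to 27.2%) of far regions and 36.8% (35.9% to 37.7%) of other regions in 2iL, for 20.7% and 30.3% at 48 h, and for 18.4% and 25.3% at 96 h. The median distance to the nearest region was 55 kb for far regions and 22.7 kb for other regions in 2iL, 70.5 kb and 31.3 kb at 48 h, and 120 kb and 46.9 kb at 96 h. They were also narrower, with a median width of 953 bp against 1002 bp in 2iL, 928 bp against 989 bp at 48 h and 852 bp against 883 bp at 96 h. More than 1 summit was called in 35.3% of far regions and 41.5% of other regions in 2iL, 29.6% and 34.4% at 48 h, and 27.2% and 32.3% at 96 h. Among the 604 clustered far regions of 2iL were 26 of the 34 far regions with a q above 1e-05, which had a median fold of 2.05.

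Linked by that step, the far regions formed 261 runs of 2 or more in 2iL, 177 after 48 h and 97 after 96 h, and the longest held 5, 4 and 3 regions. Of the 2iL runs of 5 regions, the one with the highest summed fold lay at chr16:9264580-9285211. It spanned 20.6 kb between 1810013L24Rik and Grin2a, a glutamate receptor subunit. It held 5 regions with folds of 3.73 to 21.2, of which 4 were called at 48 h and 3 at 96 h. A run of 5 regions 92.2 kb from Vegfa, the vascular growth factor gene, had folds of 6.42 to 10.2 in 2iL, and 3 of its regions were called at 48 h and 1 at 96 h. A run of 5 between Ktn1 and Peli2, with folds of 1.63 to 11.6 in 2iL, had 1 region called at each later time.

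The runs of the later lists that came first by number of regions and then by summed fold lay downstream of Sox2. At 48 h, where 2 runs held 4 regions, 4 with folds of 3.83 to 19.5 spanned chr3:34745124-34765906, and at 96 h, where 14 runs held 3 regions, 3 with folds of 4.57 to 24.3 spanned chr3:34755105-34765452, about where the enhancer known as the Sox2 control region lies. The region at chr3:34755135-34758860 had folds of 27.3 in 2iL, 19.5 after 48 h and 24.3 after 96 h, and the next, at chr3:34759739-34762290, had 14.3, 17.7 and 18.8. The second run of 4 at 48 h lay near the end of chromosome Y, at chrY:90796931-90809701, with folds of 2.14 to 7.05, and the 2iL list had no region on that chromosome. Of far 2iL regions, 49.5% (45.4% to 53.6%) of clustered and 46.9% (44.6% to 49.3%) of isolated ones were called at 48 h, and 36.3% (32.4% to 40.2%) and 31.3% (29.2% to 33.6%) at 96 h, both at a median fold of 6.20. Those with more than 1 summit, at a median fold of 6.42, were called at 48 h in 51.2% and at 96 h in 37% of cases, against 45.6% and 30.2% of those with 1 summit, at 6.08.

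Far from coding genes ESRRB regions were sparse. The stretches more than 50 kb from any coding gene lie within 2967 gaps and add up to 1006 Mb, or 37.4% of the annotated span, and they held 2.36 regions per Mb in 2iL, 1.87 after 48 h and 1.15 after 96 h. The rest held 6.75, 5.38 and 3.47 per Mb. A far region stood in 1026 gaps in 2iL, 952 after 48 h and 690 after 96 h, and 105, 75 and 24 gaps held 5 or more. The median distance of a far region to the nearest coding gene was 138 kb in 2iL, 135 kb at 48 h and 140 kb at 96 h. Those beyond 500 kb, 263 in 2iL, had a median fold of 6.57, against 6.01 for those between 50 and 100 kb. Of those beyond 500 kb 45.6% were called at 48 h and 37.3% at 96 h, against 47.5% and 32.4% of those between 50 and 100 kb. For far 48 h regions the shares were 59.3% beyond 500 kb and 57.7% between 50 and 100 kb in 2iL, and 51.5% and 46.5% at 96 h, so distance showed no single order.

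The gap with most far regions in 2iL was that between Plekhb2 and Hs6st1, a heparan sulfate sulfotransferase gene, with 17 regions in 2iL, 10 after 48 h and 2 after 96 h over 1189 kb. The gap between 1810013L24Rik and Grin2a had 15, 6 and 7, and that between Cd83 and Jarid2 had 15, 13 and 7. Nmbr–Cited2, beside the CBP/p300-binding regulator Cited2, had 12, 6 and 6. The gap before Tbx3, a T-box factor of the naive network, had 10, 6 and 5, which include the weak and split regions described below for that gene. In 543 gaps the number was lower at 48 h than in 2iL and in 317 it was higher, and at 96 h it was lower in 748 and higher in 140.

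The gaps that went the other way were chosen after their values were seen. The gap between Rragc and Pou3f1, a POU factor of the formative state, had 4 far regions in 2iL, 9 after 48 h and 3 after 96 h, counted over the whole gap. Sall1–Tox3, beside the zinc finger gene Sall1, also had 4, 9 and 3. Those at 48 h include weak regions with folds of 1.38 and 2.87, the weaker of them close beside a region with 5.68. Tmem182–Pou3f3 had 3, 8 and 5. Saraf–Dusp4, beside a phosphatase gene that is induced by ERK signalling and acts against it, had 1, 5 and 6. Ptch1–Ercc6l2, beside the Hedgehog receptor gene, had 0, 4 and 1.

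**Figure D5:**
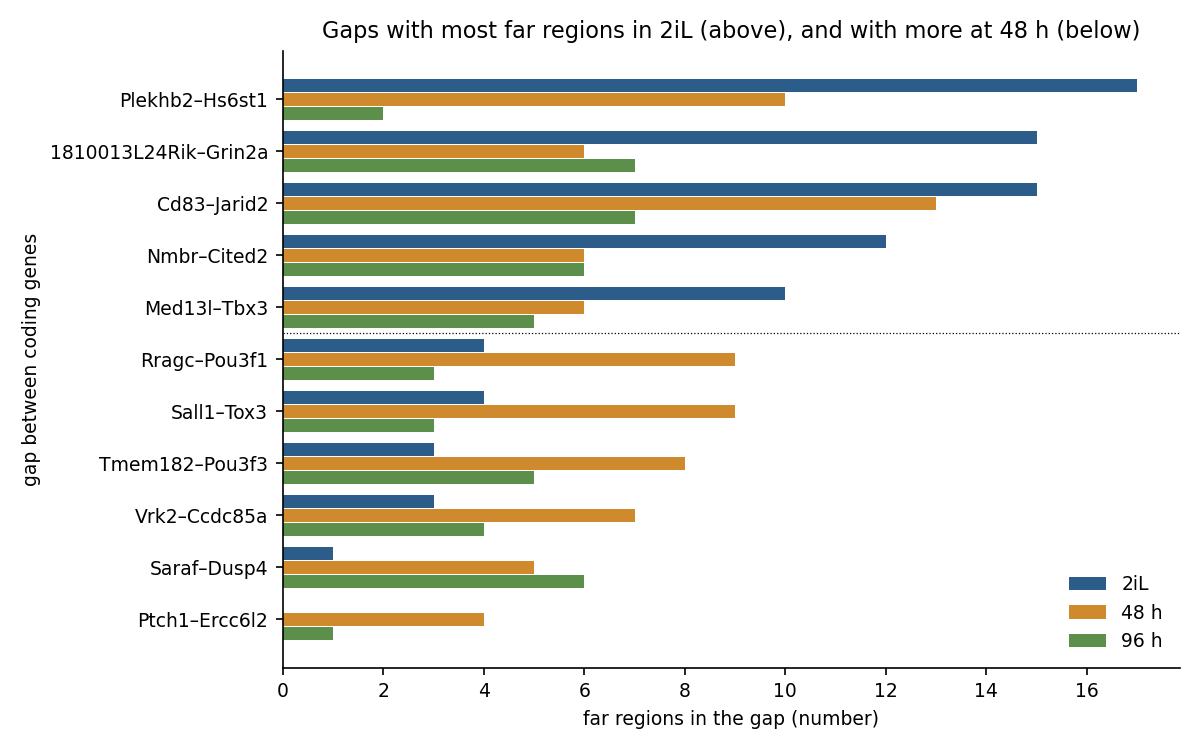
Number of far regions in 11 gaps between neighbouring coding genes, with 1 bar per library: above the dotted line the 5 gaps with most far regions in 2iL, below it 6 with more at 48 h than in 2iL. Plekhb2–Hs6st1 holds 17 regions in 2iL, 10 after 48 h and 2 after 96 h, and Saraf–Dusp4 holds 1, 5 and 6.

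A gene was counted as flanking when it was the nearest coding gene on either side of a far region within 500 kb. This held for 7.64% of 21887 coding genes in 2iL, 7.08% after 48 h and 4.93% after 96 h. Nearly all of these genes stand next to a gap of over 100 kb between coding genes, and of the 4744 genes that do, 35.2%, 32.6% and 22.7% had a far region. Of the naive pluripotency list 11 of 20 genes stand next to such a gap, and 7, 7 and 4 of them had a far region in 2iL, at 48 h and at 96 h. Of the core pluripotency list it was 8, 7 and 5 of 10 genes, and of the formative list 7, 7 and 5 of 8. These counts are descriptions and were not tested. Gaps that held a far 2iL region had a median length of 437 kb, against 178 kb for those without. The lists were not matched to all genes for gap length.

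Among the naive genes, Klf4 had 4 far regions in 2iL, 4 after 48 h and 1 after 96 h, of which the strong one downstream was in all 3 lists. Prdm14, a repressor of differentiation and of DNA methylation, had a region 61.2 kb away at chr1:13051942-13052899 with folds of 21.8 in 2iL and 7.36 at 48 h, and it was not called at 96 h. Nr5a2, a nuclear receptor that can stand in for OCT4 in reprogramming, had a region 458 kb upstream with folds of 17.2, 7.59 and 11.0. Tbx3 was flanked by 7 regions in 2iL, 3 after 48 h and 3 after 96 h, the strongest 85.4 kb away with 15.4, 8.55 and 6.02. Those in 2iL include weak regions with folds of 1.60 and 1.75. The strongest 2iL region was split into separate regions in each later list, so the counts do not compare place by place. Tfap2c had 2 far regions in 2iL and 0 in both later lists, the stronger at 6.33. Both were also counted for Bmp7, and the weaker lay 181 kb from Tfap2c and 129 kb from Bmp7.

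In the core list Mycn, a MYC family factor, had a pair of strong regions downstream, at chr12:12803127-12804613 with folds of 21.7, 20.6 and 13.2 and at chr12:12787120-12789920 with 20.1, 9.31 and 20.2. Sox2 had 7, 7 and 4 far regions. Sall1 had 7 in 2iL, 5 after 48 h and 2 after 96 h, and those at 48 h include a weak one with a fold of 1.38. Its 5 downstream regions in 2iL, with folds of 3.23 to 6.94, were called at neither later time. The region 113 kb upstream of Sall1 had folds of 9.76, 12.1 and 6.69.

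Of the formative genes, which are active as cells leave the naive state, Pou3f1 (OCT6) was flanked within 500 kb by 1 far region in 2iL, 7 after 48 h and 3 after 96 h. The 2iL region had a fold of 4.77, and the others were called later alone, with folds of 3.46 to 7.59 at 48 h and up to 9.61 at 96 h. Grhl2, an epithelial factor, had a region 151 kb away with folds of 13.0, 14.4 and 10.3. Otx2, a homeodomain factor of the formative state, had 2 far regions in 2iL, 4 after 48 h and 0 after 96 h, the highest at 7.69 in 2iL.

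The lists of later lineages gave mixed pictures. Of all 4744 coding genes beside a gap, 35.2%, 32.6% and 22.7% had a far region. Gap length was not matched between them and the lists. Of the neural list 7, 7 and 8 of 14 genes beside a gap had a far region. Pou3f3 had 0 in 2iL, 3 after 48 h and 2 after 96 h, and a region 148 kb upstream of Olig3, a helix-loop-helix factor of the neural tube, had folds of 7.40 in 2iL, 12.3 after 48 h and 15.8 after 96 h. Of the mesoderm and endoderm list it was 10, 7 and 6 of 14 genes. Sox9, a factor of endoderm and cartilage, had 7 far regions in 2iL, with folds of 4.05 to 6.69, and 1 at each later time, and Gata6, a primitive endoderm factor, had 1, 4 and 2. A region 154 kb upstream of Eomes, a T-box factor of mesendoderm and trophoblast, had folds of 4.71, 8.61 and 8.99. Of the trophoblast list 8, 6 and 6 of 12 genes had a far region, and one 414 kb downstream of Gata3 had folds of 14.8, 13.9 and 5.36.

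Of the list of signalling targets and regulators, which covers ERK, WNT, LIF and TGF-β family signalling, 10, 8 and 4 of 12 genes beside a gap had a far region. Of all coding genes beside a gap, 35.2%, 32.6% and 22.7% had one. Etv1, an ETS factor under ERK control, had a region 50.2 kb upstream with folds of 18 in 2iL and 6.67 at 48 h that was not called at 96 h. Dusp4 had 1 far region in 2iL, 5 after 48 h and 6 after 96 h, with folds of 3.23 in 2iL, 3.15 to 7.80 at 48 h and 3.26 to 6.48 at 96 h. A region 206 kb downstream of Dusp6, another ERK phosphatase gene, had folds of 5.32, 10.0 and 13.6. Sp8, a WNT target in the embryo, had 2 far regions in 2iL and 0 later, the stronger at 14.2. Of the nuclear receptor list 10, 10 and 8 of 18 genes had a far region. Nrip1, a corepressor of nuclear receptors, had 3 in 2iL and 4 at each later time, and one 389 kb upstream had folds of 7.21, 5.39 and 14.6. A region 158 kb upstream of Esrrg, a paralog of Esrrb, had folds of 11.1, 11.5 and 10.0.

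Energy metabolism genes, many of which are known targets of estrogen-related receptors, had 1, 0 and 0 of 3 genes beside a gap with a far region. That gene was Ppargc1a, the coactivator PGC-1α, with a fold of 8.11 in 2iL at 252 kb. None of the 3 control genes of other tissues that stand next to a gap had a far region in the 3 lists. With 3 genes in each, these 2 lists say little.

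Some of the far regions lie in other annotated genes. The summit stood inside the span of a lncRNA gene for 17.6% of far regions and 9.86% of other regions in 2iL, 18.3% and 9.79% at 48 h, and 17% and 10.7% at 96 h, and a far summit can lie in no coding gene by the rule. In 2iL 28.9% of far regions had a gene of another type within 5 kb, most often a lncRNA (24%), against 23.7% and 18.3% of other regions. Far 2iL regions inside a lncRNA span were called at 48 h in 47.5% of cases and those outside in 47.6%. At the limit of the rule, the region just inside in 2iL lay 50010 bp from a gene with a fold of 1.47, and the next 50041 bp from one with folds of 13.7, 5.50 and 5.17 in the 3 lists. The 2 just outside lay at 49975 and 49971 bp, with 2iL folds of 6.80 and 5.96, called in 2iL alone. The region at 50041 bp in 2iL lay at 49986 bp at 48 h and at 50012 bp at 96 h, so shifts of the summit moved it over the limit. At 48 h the members just inside lay at 50083 and 50131 bp with folds of 4.68 and 13.3, and the non-members at 49986 and 49973 bp with 5.50 and 5.40. At 96 h the members lay at 50012 and 50098 bp with 5.17 and 3.02, and the non-members at 49746 and 49733 bp with 7.70 and 3.31.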

How the data were processed

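ChIP-seq for ESRRB was given as 3 narrowPeak lists, 1 per condition. Per the submitters' processing notes, bcl2fastq 2.20.0.422, BWA, SAMtools, Picard and MACS2 were used with mm10. Their roles, the calling threshold and the use of the inputs are not stated in the sources used here. Each deposited fold is a ratio of reads at the summit to local background. The authors' p-values and q-values are deposited as −log10 values. The deposited summit offset is in bp, and the deposited score was not used in a result.

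Unique intervals, with the highest summit by fold, were placed against RefSeq gene spans of GRCm38.p6 (mm10). Sharing meant an overlap of 1 bp or more (own code, with the same counts from bedtools 2.31.1). Strand or exons were not used, except the strand of the RefSeq start windows, which also gave upstream and downstream. Reads and local background were recovered from fold and p, assuming (reads + 1)/(background + 1) and a Poisson tail, within 0.001 on the −log10 scale. Shares have Clopper-Pearson 95% intervals. The code was tested on simulated intervals with known answers, and pandas 2.3.3 and scipy 1.17.1 were used. With 1 library per condition no p-value was computed. Replicates could not be compared, and total depth was not given. The most common background, taken as the lowest, depends on depth without measuring it alone.

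Named regions were, by rule, the 10 of highest fold per library, the 10 strongest called in 2iL alone, the 5 strongest at each later time not in 2iL, the 5 longest runs, the 5 fullest gaps and the 2 on each side of the limit; named genes were up to 8 per list. Not all of these are printed. The members, rule and gene lists were chosen with earlier results of these data known. A motif search at all summits was not run, since region sequence was not used here. Alternatives were other distance limits, genes of any type as bounds, lists of equal length, a q of at most 1e-05, other overlap rules, comparison within quintiles of fold or p, other steps and autosomes alone.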

Additional observations from a re-analysis of the deposited data

How the results depend on the processing

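Of 108 values recomputed under other settings, 57 moved beyond the counting interval of the reported value and 51 did not; for settings that change who is a member, the cause is their construction. The far share became 25.1%, 24.8% and 24.3% (2iL, 48 h, 96 h) with a limit of 25 kb, 11.1%, 10.9% and 10.6% with 100 kb, 5.3%, 4.97% and 5.14% with genes of any type as bounds, and 18.9% and 19.2% (2iL, 48 h) with lists of equal length. The median fold of far regions became 6.36 and 5.45 (2iL, 48 h) with genes of any type, 8.24 and 6.27 with lists of equal length, and 5.18 at 96 h with a q of 1e-05 or less. The clustered share of far regions became 29.5% and 23.5% (2iL, 48 h) with 25 kb, 20.8% and 17.1% with 100 kb, 18.1%, 16.7% and 13.9% with genes of any type, 14.8% and 14.4% (2iL, 48 h) with lists of equal length, 13.5%, 10.5% and 9.74% with a step of 5 kb, 34.9%, 30.2% and 23.5% with a step of 25 kb, and 15% at 96 h with the stricter q.

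Far 2iL regions were called at 48 h in 44.9% of cases with genes of any type, 53.4% with lists of equal length, 41.7% with an overlap of 50% of both regions, 44.6% with summits within 200 bp and 45.5% as a mean over quintiles of fold. At 96 h they were called in 43.8% with equal lists, 27.5% with 50% overlap, 30.6% with close summits and 30.5% over quintiles. Far 48 h regions were called in 2iL in 52.7% with equal lists, 52.2% with 50% overlap, 55.8% with close summits and 57% over quintiles, and at 96 h in 57.2% with equal lists, 41.9% with 50% overlap and 44.1% over quintiles. Far 96 h regions were called in 2iL in 63.4% with genes of any type, 50.1% with equal lists, 55.9% with 50% overlap and 62.3% with close summits, and at 48 h in 73.1% with genes of any type, 66.6% with equal lists, 68.1% with 50% overlap, 73.1% with close summits and 79.7% with the stricter q.

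Far regions were called again less often than other regions in 57 of 60 such pairs of values over 10 settings. The exceptions were far 96 h regions with lists of equal length, in both directions, and with 50% overlap at 48 h (68.1% against 67.4%). The settings recount the same lists in both directions, so the 60 pairs are not independent of each other. The comparison within quintiles of −log10 p was chosen after seeing the data. The median fold was higher, and the clustered share lower, in far than in other regions in each library under the 5 settings that redefine the regions, which are both limits, genes of any type, the stricter q and equal lists. Depth limits what a missing call shows: a place not called in a shallower or weaker library may lie under its threshold, which the files do not give. The motif windows of other sizes were not run, since region sequence was not used here. No paired analysis was possible because each condition has 1 library.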
